A study of Oryctolagus cuniculus with 12 samples.

Results

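Alpha globin (HBA), beta globin (HBB2) and the erythroid form of aminolevulinate synthase (ALAS2) were followed array by array in basilar arteries of rabbits, as a measure of red-cell RNA left with this artery at the base of the brain. All 11 non-control probes that the array's gene name, accessions or description assign to these 3 genes were taken, of 43623 non-control probes in all. HBA has 3 probes, HBB2 has 2 and ALAS2 has 6. Total RNA of the arteries (Oryctolagus cuniculus) was hybridised to 12 arrays in 4 groups of 3: a control group (day 0 in the series) and groups of day 3, day 5 and day 7 after subarachnoid hemorrhage, in which blood enters the space around the brain. No genotype, strain or age is given in the labels, and nothing in them ties the 3 arrays within a group to different animals, so the p-values cover the spread of these arrays only, and that spread may be technical. Each replicate number is 1 of 3 slides, each slide carries 1 array of every group, and a group always sits at the same position on its slide. Slide position and time point therefore cannot be told apart.

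Hemoglobin is a tetramer of alpha and beta globin chains, each of which holds a heme group. Red-cell precursors transcribe both globin genes at very high levels, and ALAS2 makes the first step of heme synthesis in the same cells. The rabbit's circulating red cells have no nucleus, and the youngest of them, the reticulocytes, still carry globin mRNA. After a subarachnoid hemorrhage a clot surrounds the artery, its red cells are lysed and phagocytosed over days, and heme is broken down by heme oxygenase. In RNA of whole arteries, fewer red cells and less RNA per red cell cannot be told apart.

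The probes are 60 bases long and are shown because the measured signal rests on what each can bind. Of the HBA probes, which the array places on no chromosome, 2 overlap each other by 48 bases, given in capitals, and the third shares no such stretch with them. All 3 cite the same RefSeq transcript of HBA. Whether close copies of alpha globin add to their signal was not tested.
A_04_P002986: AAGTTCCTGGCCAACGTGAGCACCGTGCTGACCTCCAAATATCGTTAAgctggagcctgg
A_04_P003481: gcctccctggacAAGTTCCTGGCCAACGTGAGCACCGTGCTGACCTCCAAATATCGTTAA
A_04_P048372: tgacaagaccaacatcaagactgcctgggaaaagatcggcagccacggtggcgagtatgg
The main HBB2 probe is placed by the array at chr1:146237830-146237889 on the descending strand, of a genome build the array does not name. It is shown because it carries the beta globin values below.
A_04_P001081: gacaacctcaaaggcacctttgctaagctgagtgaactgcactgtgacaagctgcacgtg
The other HBB2 probe, A_04_P005566, is placed 413 positions away at chr1:146238243-146238302 on the ascending strand. It takes its name from an expressed sequence tag and is placed on the strand opposite to the main probe.

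The ALAS2 probes are of 2 kinds. A_04_P023601 cites RefSeq transcripts of ALAS2, and the array places its 60 bases over 625 positions of chromosome X (chrX:36434483-36435107, descending strand), so it spans 565 more positions than it has bases, as a probe across a splice junction would.
A_04_P023601: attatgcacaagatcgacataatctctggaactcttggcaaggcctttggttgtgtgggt
The other 5 were designed on 1 rabbit osteoclast expressed sequence tag that is described as similar to delta-aminolevulinate synthase, with no word on which of the 2 forms. They are shifted against each other by 1 base each and share 56 bases, in capitals in the last of them, so they are 5 readings of 1 target and not 5 pieces of evidence. The array places them at chrX:36437797-36437866, 3314 to 3318 positions from A_04_P023601 and on the same strand.
A_04_P012455: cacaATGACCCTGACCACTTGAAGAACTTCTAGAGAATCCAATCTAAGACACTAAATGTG

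The arrays were similar in depth as far as the number of bright spots shows it. Between 58.2% and 64% of spots were well above background on 11 arrays, and 50.1% were on control replicate 2, which also had 169 spots with an outlier flag against 1 to 16 elsewhere. No spot was saturated. A probe was tested if some group had it well above background on each of its 3 arrays, which held for 9 of the 11 probes and for 26431 in all. The tiled probes A_04_P012453 and A_04_P012454 were not. Levels below are log2 signals minus the log2 of the array's own 75th percentile, and changes are log2 differences between groups from 1 limma fit of all 12 arrays, with Benjamini-Hochberg adjustment over all tested probes and a threshold of 0.05.

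HBA, the alpha chain of hemoglobin, was bright on every array and highest on day 7, but no change from the controls passed the test. The processed signal of A_04_P002986 was 8969, 4958 and 4414 on control replicates 1 to 3, and 3190.5, 6518 and 17005 on those of day 3. It was 12839, 7548 and 12935 on day 5, and 18064, 12201 and 10427 on day 7. On the scaled level, the day 3 arrays hold both the lowest of the 12 and the third highest, and all 3 day 7 arrays lie above every control array. The group means of the log2 level were 5.12 ± 0.46 (SD, n = 3) in controls, 5.29 ± 1.17 on day 3, 6.09 ± 0.49 on day 5 and 6.52 ± 0.33 on day 7. The order of the means follows the days, but every pair of groups overlapped except controls and day 7. Day 5 replicate 2, at 5.53, lay below control replicate 1, at 5.62. Day 3 replicate 3, at 6.55, lay above day 7 replicate 3, at 6.16.

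On day 7 HBA was 1.40 higher than in controls (SE 0.49, 2.64-fold, limma adjusted p = 0.164), with a 95% confidence interval of 0.33 to 2.47. The difference was 1.19, 1.87 and 1.14 within slides 1 to 3, positive on each, as follows from the lack of overlap. On day 5 HBA was 0.97 higher (SE 0.49, limma adjusted p = 0.407), also positive on each slide. The share of all tested probes with the same sign on every slide was not counted. On day 3 the mean difference was 0.17 (SE 0.49, limma adjusted p = 0.884), made of -1.38, 0.37 and 1.53 on slides 1 to 3. The day 3 value therefore differs in sign between slides, and without day 3 replicate 3 it is -0.45.

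The other HBA probes gave the same picture. A_04_P003481 correlated with A_04_P002986 at r = 0.999 over the 12 arrays and A_04_P048372, which shares no such stretch with it, at r = 0.993, as a description of probes on the same arrays. On day 7 they were 1.36 (SE 0.48, limma adjusted p = 0.174) and 1.20 (SE 0.51, limma adjusted p = 0.247) above the controls. All 3 HBA probes lay above the controls on day 7 with no overlap, as did 12.3% of all tested probes, and all 3 had an unadjusted p below 0.05 there, as did 10.5% of all tested probes in that direction.

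HBB2, the beta chain, moved in the same way and over a wider range. Its main probe A_04_P001081 read 20553, 14090.2 and 12194 on the control arrays, and 7452, 14582 and 47210.0 on the day 3 arrays. On day 5 it read 29562, 20432 and 55562, and on day 7 40275, 26578 and 45151. On the scaled level no control array reached any array of day 5 or day 7, although the unscaled signal of control replicate 1 was just above that of day 5 replicate 2. Of all tested probes, 10.3% lay above the controls on day 5 without overlap, and 12.3% on day 7. The day 3 arrays spanned from below all controls to above 2 of the 3 day 7 arrays. Its highest scaled level was 8.62-fold above its lowest, against 5.95-fold for HBA and 4.06-fold for A_04_P023601 of ALAS2.

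The group means of HBB2 were 6.51 ± 0.30 (SD, n = 3) in controls, 6.58 ± 1.31 on day 3, 7.67 ± 0.82 on day 5 and 7.98 ± 0.29 on day 7. Controls and day 3 did not differ beyond their spread, and neither did day 5 and day 7. The change from controls was 1.48 on day 7 (SE 0.56, 2.78-fold, limma adjusted p = 0.200), with a 95% confidence interval of 0.25 to 2.70. It was 1.15, 1.48 and 1.79 within slides 1 to 3. With only the 6 arrays of controls and day 7 in the fit, the same change had a limma adjusted p of 0.0349, the only alternative run that put a change of a member against the controls past the threshold. On day 5 the change was 1.16 (SE 0.56, limma adjusted p = 0.381), and on day 3 it was 0.07 (SE 0.56, limma adjusted p = 0.962), from -1.35 on slide 1 to 1.53 on slide 3. Without day 3 replicate 3 the day 3 value is -0.65.

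The probe on the opposite strand, A_04_P005566, was dimmer, at 248 to 686 in controls and between 188 and 1409 on the other arrays, and followed the main HBB2 probe at r = 0.97 over the 12 arrays. It was 1.07 above controls on day 7 (SE 0.55, limma adjusted p = 0.338) and 1.0 on day 5 (SE 0.55, limma adjusted p = 0.453). Unlike the main probe, it overlapped the controls on day 5 on the scaled level. Day 5 replicate 2 was at 1.73 and control replicate 1 at 1.91. The array places it apart from the main HBB2 probe, with no shared positions. For HBA, an unnamed probe, A_04_P033277, is complementary to 28 bases of the HBA probe A_04_P048372. It read 43.9 to 236 over the arrays and followed HBA at r = 0.99. Both alpha and beta globin thus had a dimmer probe of opposite orientation that went with the main one from array to array.

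ALAS2 was close to the detection limit. A_04_P023601 read 51.8, 23.1 and 18.2 on the control arrays, and 14.1, 17.0 and 62.0 on the day 3 arrays. It read 35.7, 28.5 and 46.6 on day 5, and 38.7, 21.8 and 34.3 on day 7. Control replicate 2 was not well above background, so 2 of the 3 controls measured it. On the scaled level the day 3 arrays held both the lowest and the highest of the 12, where for the globins they held the lowest and the third highest, and every group overlapped the controls. The group means were -2.58 ± 0.67 (SD, n = 3), -2.88 ± 1.14, -2.13 ± 0.44 and -2.23 ± 0.27 for controls, day 3, day 5 and day 7.

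None of the ALAS2 changes passed the test. A_04_P023601 differed from controls by -0.29 on day 3, 0.45 on day 5 and 0.36 on day 7 (SE 0.50 for each, limma adjusted p = 0.793, 0.759 and 0.751). Its 95% confidence interval on day 7, -0.74 to 1.45, includes the change seen for HBA. Each tested tiled probe was well above background on only 1 of the 3 day 3 arrays, and A_04_P012455 on only 1 of the 3 controls. Part of their differences thus rests on values near or below detection. The tested tiled probes were below the controls on every day, from -0.66 to -1.40 on day 3, and so had the sign opposite to A_04_P023601 on day 5 and day 7. Their range was -0.23 to -0.80 for day 5 and -0.25 to -0.65 for day 7. Of these, A_04_P012451 read 72.0 on control replicate 2 and 8.09 to 27.2 on the other 11 arrays. The untested A_04_P012453 read 94.6 on day 5 replicate 3 and 5.36 to 19.3 elsewhere. Probes that share 56 of 60 bases thus disagreed on single arrays, and their r with A_04_P023601 over the 12 arrays was 0.193 to 0.528. Results named ALAS2 below rest on A_04_P023601.

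**Figure D1:**
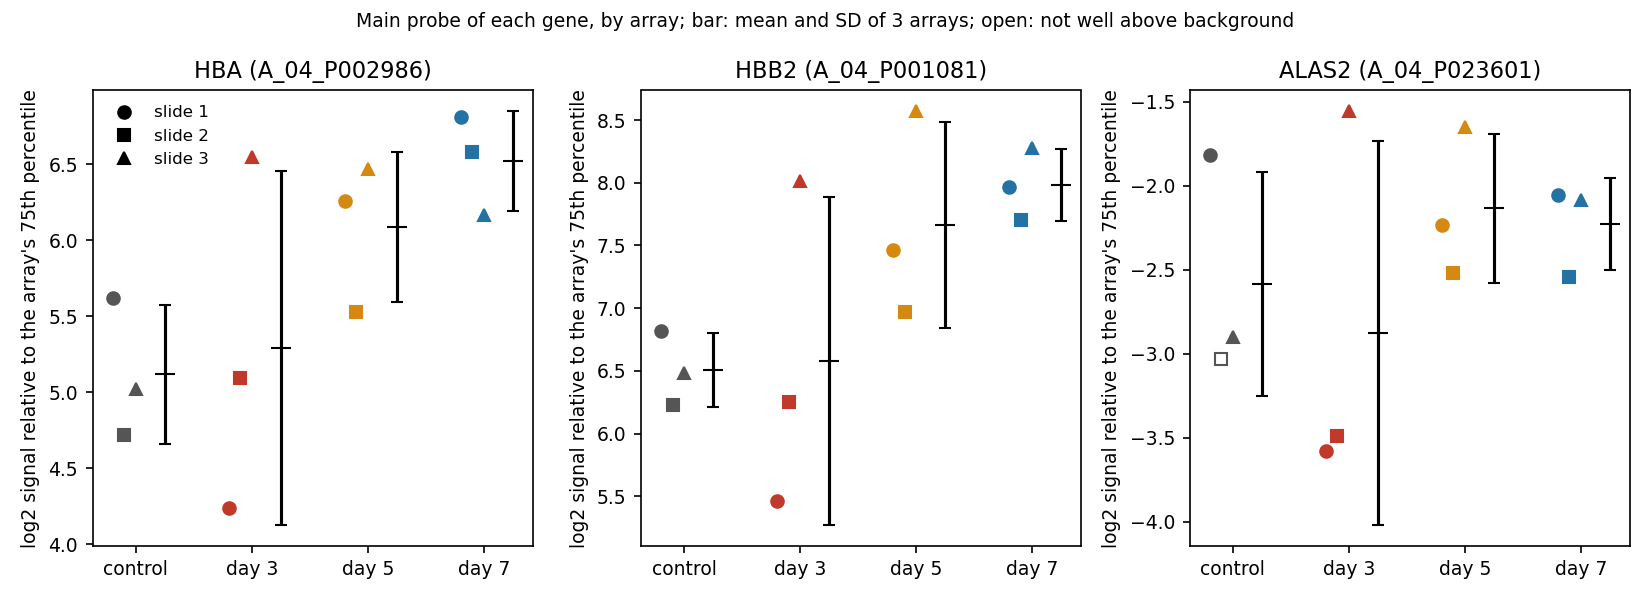
Scaled log2 signal (75th percentile of the array at 0) for the main probe of HBA, HBB2 and ALAS2, 1 point per array in the 4 groups, with the slide as marker and the mean ± SD of 3 arrays beside it. On this scale the day 7 arrays of HBA and HBB2 lie above all controls, the day 3 arrays spread from 4.24 to 6.55 for HBA and from 5.46 to 8.02 for HBB2, and the open ALAS2 point is control replicate 2, not well above background.

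Across the 9 tested probes, 0 were called in limma on any day against the controls. At an unadjusted p below 0.05 there were 0 higher and 2 lower on day 3, both tiled ALAS2 probes, none on day 5, and 4 higher on day 7, of which 3 were HBA and 1 was HBB2. By that same threshold, 12% of all tested probes were higher and 9.5% lower on day 3, 9.61% and 4.78% on day 5, and 10.5% and 7.23% on day 7. With the adjusted p, 6.64% of all tested probes were called on day 3, 2.02% on day 5 and 2.26% on day 7. The lowest adjusted p of a globin probe was 0.164, for HBA on day 7. Between days, no member probe was called in limma either, against 0.0114% of all probes for day 5 minus day 3, 0.144% for day 7 minus day 3 and 0% for day 7 minus day 5. HBA and HBB2 were 1.23 and 1.41 higher on day 7 than on day 3 (SE 0.49 and 0.56, limma adjusted p = 0.387 for both).

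A test of any difference between the 4 groups gave the same answer. By the exact permutation test of the F statistic over all assignments of the 12 arrays, p was 0.124 for HBA, 0.141 for HBB2 and 0.572 for ALAS2, or 0.212, 0.212 and 0.572 adjusted over the 3 genes. The limma F test of any day against the controls gave adjusted p = 0.281, 0.287 and 0.755, and called 2.96% of all probes. The spread within groups was wide for these genes. The pooled SD of HBA, 0.69, was larger than that of 94.8% of tested probes, that of HBB2, 0.80, than that of 96.3%, and that of ALAS2, 0.71, than that of 95.2%, where the median probe had 0.27.

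**Figure D2:**
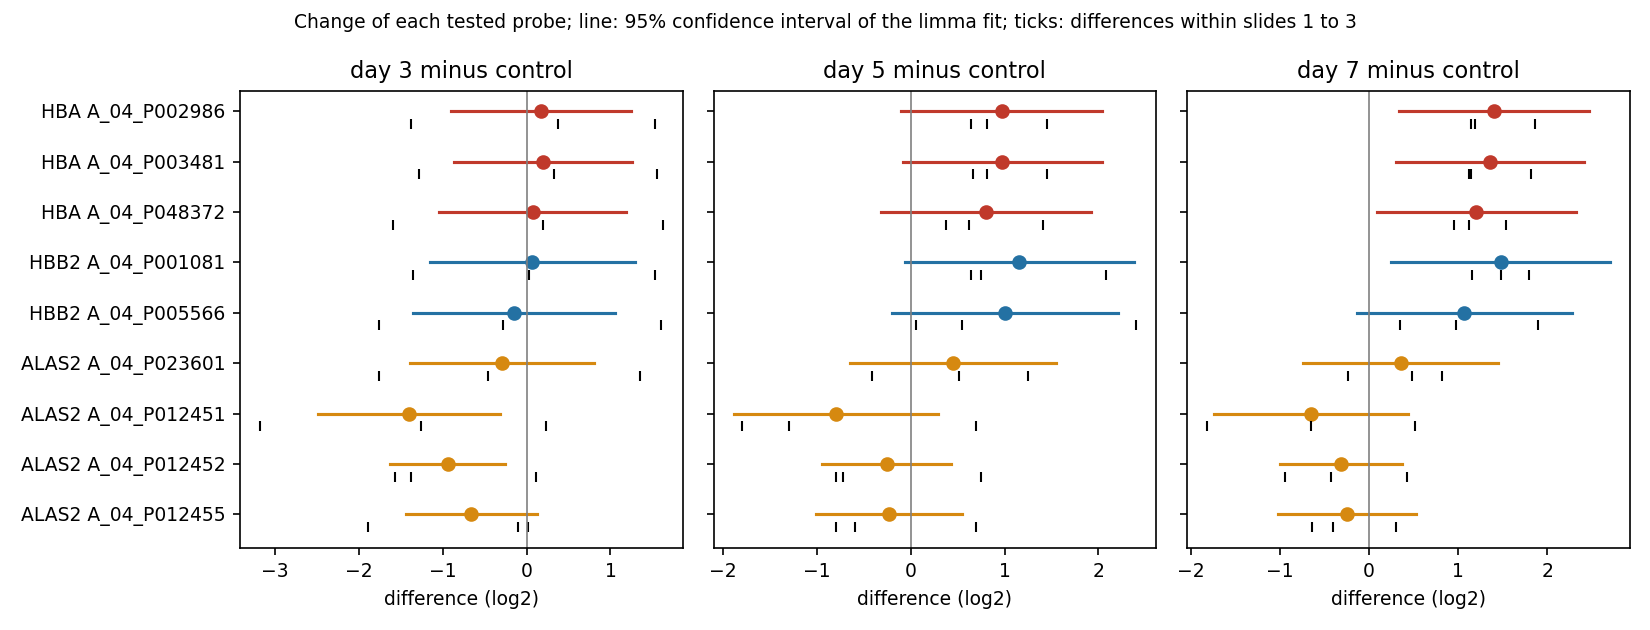
Log2 difference from the controls on day 3, day 5 and day 7 for the 9 tested probes, with the 95% confidence interval of the limma fit as a line and the differences within slides 1 to 3 as ticks. All HBA and HBB2 ticks are above 0 on day 5 and day 7, those of day 3 lie on both sides of 0, and the estimates of the tiled ALAS2 probes lie below 0 on each day, while that of A_04_P023601 does so on day 3.

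The levels of HBA, HBB2 and ALAS2 went together from array to array. Over the 12 arrays the log2 levels of HBA and HBB2 correlated at Pearson r = 0.935 (permutation p = 6e-05, adjusted over 3 pairs 0.00018; Spearman rho = 0.832, permutation p = 0.00127, adjusted 0.00249). HBA and ALAS2 correlated at r = 0.817 (permutation p = 0.00157, adjusted 0.00157; rho = 0.727, permutation p = 0.00924, adjusted 0.00924). HBB2 and ALAS2 correlated at r = 0.852 (permutation p = 0.00063, adjusted 0.000945; rho = 0.825, permutation p = 0.00166, adjusted 0.00249). Without the 2 arrays farthest from the median of the first-named gene the r values were 0.882, 0.694 and 0.751. Within slides, as deviations from the slide mean, they were 0.965, 0.82 and 0.839. With the mean of all tested probes standing for each gene, those with ALAS2 fell to 0.342 (permutation p adjusted 0.276) for HBA and 0.522 (permutation p adjusted 0.122) for HBB2, since the tiled probes then outnumber A_04_P023601.

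The members also went together within groups. As deviations from the group means, HBA and HBB2 had r = 0.877 over the 12 arrays, HBA and ALAS2 0.881, and HBB2 and ALAS2 0.903, given here as descriptions. Day 3 replicate 3 was 1.25 above the mean of its group for HBA, 1.44 for HBB2 and 1.32 for ALAS2, and day 3 replicate 1 was 1.05, 1.11 and 0.70 below. Leaving day 3 replicate 3 out of these deviations gave r = 0.779, 0.781 and 0.823. The day 3 mean was not taken anew there, so that array still set the deviations of the other day 3 arrays. Without all day 3 arrays the within-group r was 0.612, 0.754 and 0.787. Outside day 3, control replicate 1 was the highest of the controls for all 3 genes, day 5 replicate 3 the highest and day 5 replicate 2 the lowest of day 5. On day 7 the globins parted: replicate 3 was lowest for HBA and highest for HBB2.

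Seen by slide, the highest HBB2 array of each of day 3, day 5 and day 7 was that of slide 3, and the highest control that of slide 1. The scaling values of the 2 extreme day 3 arrays differed little: the 75th percentile of the signal was 169 on replicate 1 and 182 on replicate 3, and 60.8% and 58.2% of spots were well above background.

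Among 7280 genes compared with each, 1 probe per gene, HBB2 was the gene most like HBA over the 12 arrays and HBA the one most like HBB2 (r = 0.935 for both). For HBA the next were TBCK (r = 0.909), FKBP15 (0.88), BPI (0.857), which encodes a bactericidal protein of neutrophil granules, and NDUFAF2 (0.855), a factor for assembly of mitochondrial complex I. ALAS2 came ninth. For HBB2 the next were TBCK (0.903), LOC100345689 (0.865), ALAS2 (0.852) and NDUFAF2 (0.85). For ALAS2 the order was METRNL (0.881), HBB2 (0.852), HBA (0.817), GPR174 (0.755) and TBCK (0.755). The globins thus led each other's lists when differences between and within groups both counted.

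Within groups other genes ranked above the members. The highest r with HBA were those of CDK5RAP3 (0.954), LOC100344919 (0.934), which the array describes as similar to vascular non-inflammatory molecule 3, NOLC1 (0.927), the proteasome subunit PSMC1 (0.926) and DHPS (0.925), with ALAS2 at rank 17 and HBB2 at rank 22. Those with HBB2 were PSMC1 (0.962), the proteasome subunit PSMD4 (0.958), heme oxygenase 1 (0.957), DTYMK (0.95) and NUBPL (0.949), with ALAS2 at rank 13 and HBA at rank 33. Those with ALAS2 were CHPF2 (0.949), the proteasome subunit PSMC2 (0.944), FCRLA (0.944), LZTR1 (0.942) and CIAPIN1 (0.935), with HBB2 at rank 18 and HBA at rank 35.

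A limma fit of each probe on the within-group level of a member called 1 of 26428 probes (0.00378%) with HBA, 3 of 26429 (0.0114%) with HBB2 and none of 26427 (0%) with ALAS2. At an unadjusted p below 0.05 there were 1822, 4032 and 2289. The probe called with HBA was A_04_P033277, complementary to the HBA probe (slope 0.99 log2 per log2, SE 0.08, limma adjusted p = 0.00797). Those called with HBB2 were 2 of SFRP2, a secreted antagonist of Wnt signalling, with slopes of -1.50 and -1.38 (SE 0.15 and 0.16, limma adjusted p = 0.0340 and 0.0499), and the unnamed A_04_P072312 (slope 1.06, SE 0.12, limma adjusted p = 0.0395). The members themselves had slopes near 1 on each other, 1.01 (SE 0.19, limma adjusted p = 0.625) for HBB2 and 0.90 (SE 0.17, limma adjusted p = 0.625) for ALAS2 on HBA, and did not pass the test. No call with HBB2 survived the slide as a block or quantile normalization, and leaving out 1 array gave 0 to 6 calls, with 6 without day 3 replicate 2, 1 without day 5 replicate 2 or day 7 replicate 1, and 0 without each of the others. For HBA the block left 0, and leaving out 1 array gave 0 to 2, with 0 without day 3 replicate 1, day 3 replicate 3 or day 5 replicate 2 and 2 without control replicate 3.

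A_04_P072312 has no name on the array, which places it at chr1:146246695-146246754, on the strand of the main HBB2 probe and 8865 positions from it. It is shown because, of the probes that the array places within 50000 positions of that probe, it followed beta globin as closely as the second HBB2 probe did.
A_04_P072312: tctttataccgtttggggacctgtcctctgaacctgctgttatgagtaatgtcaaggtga
On the array's coordinates it lies between HBB2 and the olfactory receptor gene OR51B4. In the RefSeq assembly mOryCun1.1 the 3 genes between those are HBE1 and HBG2, beta-like globins of the embryonic and fetal type, and LOC100352127. Which of them it reports, or whether it reports any, was not tested. It read 1696, 1341 and 951 on the control arrays, 563, 1281 and 3298 on day 3, 2131, 1772 and 7341 on day 5, and 2845, 2197 and 3470.3 on day 7. As for HBB2, the lowest array was day 3 replicate 1 and the highest day 5 replicate 3. Its r with HBB2 was 0.97 over the 12 arrays and 0.958 within groups, or 0.95 within groups without the day 3 arrays. It was 1.33 above controls on day 7 (SE 0.61, limma adjusted p = 0.289). The 3 probes named OR51B4 in that window were above background on no array.

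**Figure D3:**
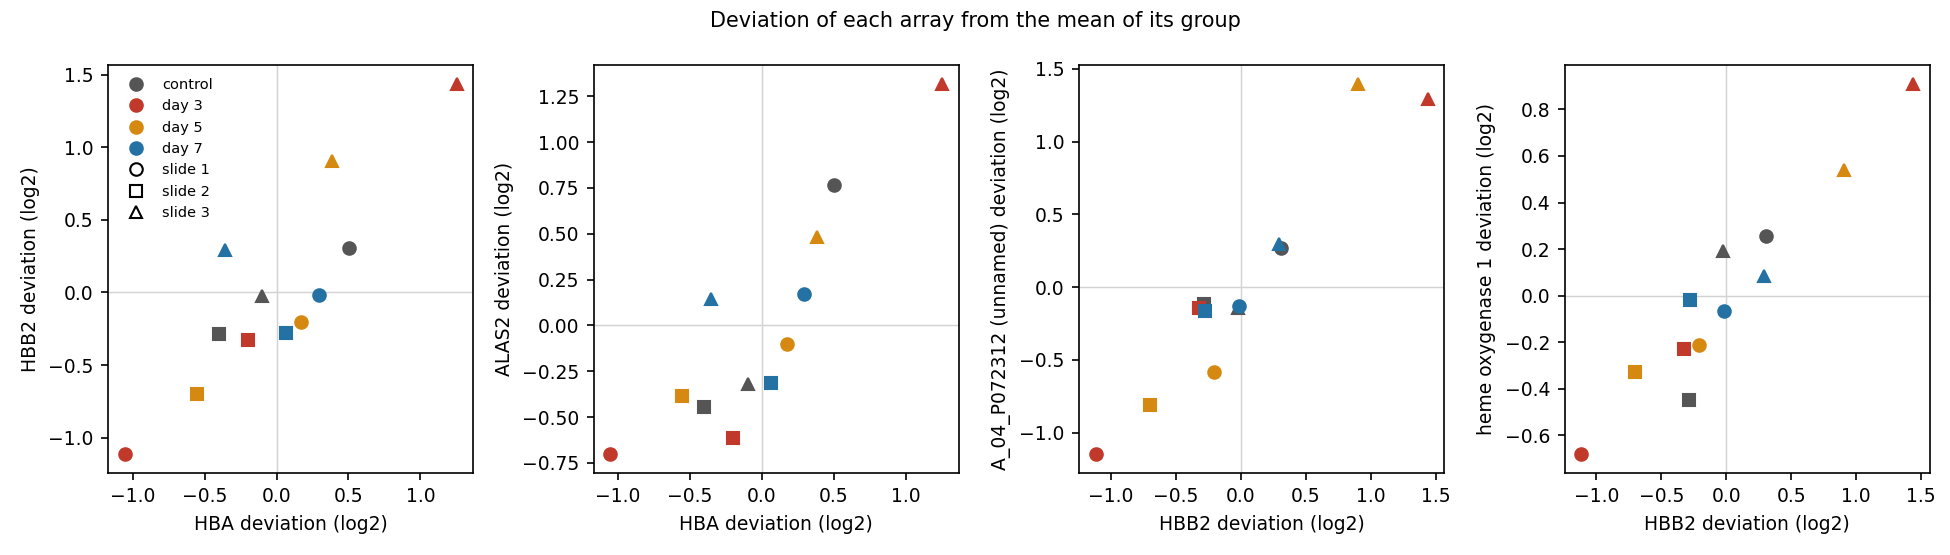
Deviation of each of the 12 arrays from the mean of its group on the log2 scale, for HBB2 and ALAS2 against HBA, and for the unnamed probe A_04_P072312 and heme oxygenase 1 against HBB2, with colour for the group and marker for the slide. The arrays run from day 3 replicate 1 at the lower left to day 3 replicate 3 at the upper right in all panels but that of A_04_P072312, where day 5 replicate 3 is highest, with within-group r of 0.877, 0.881, 0.958 and 0.957.

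Most other erythroid genes did not follow the globins. The list of 52 erythroid genes had 23 named on the array and 13 measured, HBA, HBB2 and ALAS2 included. None of the 13 rose on any day, and 1, FECH, fell on day 7. Of all 7309 genes, 6.87%, 2.13% and 2.53% were called in either direction on day 3, day 5 and day 7, and the same shares stand beside the list counts below. The list's median change was 0.07, 0.10 and 0.14 on these days, beside -0.0047, 0.02 and 0.03 over all genes. The 10 named but not measured include several defining genes of the red-cell membrane: SLC4A1, the anion exchanger band 3, was above background on 4 of 12 arrays, EPB42 on at most 1, SPTB on at most 3, and RHAG, an ammonium transporter, on none. HEMGN, a nuclear protein of erythroid precursors, was above background on 1 array at most.

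The 10 measured erythroid genes other than the members had a median within-group r with HBA of -0.137, and 4 of the 10 were above 0, where all genes had a median of 0.0538 with 53.9% above 0. GLRX5, which serves iron-sulfur cluster assembly, had 0.663, SLC25A38, a mitochondrial glycine carrier for heme synthesis, 0.462, and SLC2A4, the insulin-regulated glucose transporter, 0.271. The erythropoietin receptor EPOR had -0.619, EPB41, which anchors the red-cell membrane skeleton, -0.324, KEL, a membrane protease that carries the Kell blood group, -0.209, CD36, a scavenger receptor, -0.198, BPGM, which makes 2,3-bisphosphoglycerate, 0.0011. CD36 was 2.50, 2.41 and 3.16 above controls on day 3, day 5 and day 7 (SE 0.79 for each, limma adjusted p = 0.088, 0.169 and 0.065), and was well above background on 1 of 3 control arrays. The part of the list other than the members thus had no common direction with HBA.

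Of the 3 other measured members of the globin family, 1 had a within-group r with HBA above 0, where 53.9% of all genes did. HBQ1, an alpha-like globin of the theta type, read between 777 and 1518 on all arrays and was highest on day 3 replicate 1, where HBA and HBB2 were lowest. Its r with HBA within groups was -0.489, and 0.23 without the day 3 arrays. Its change was 0.37, 0.14 and 0.35 on day 3, day 5 and day 7 (SE 0.23 for each, limma adjusted p = 0.395, 0.854 and 0.461). A probe described only as rabbit globin mRNA, A_04_P012631, which names neither chain and was assigned to no gene here, read 81.0 to 146 and had a within-group r with HBA of 0.08. CYGB, a globin of fibroblast-like cells, rose on day 3 by 1.35 (SE 0.15, limma adjusted p = 0.000399) and was 0.40 and 0.62 above controls on day 5 and day 7 (limma adjusted p = 0.216 and 0.054). With normexp background correction its day 3 difference was 0.84. Its within-group r was 0.537 with HBA, 0.432 with HBB2 and 0.506 with ALAS2. NGB, the globin of neurons, was near background and differed by -0.02, 0.02 and 0.44 (SE 0.34 for each, limma adjusted p = 0.985, 0.990 and 0.533). Of the 5 measured genes of the family, 1 rose on day 3 and none on day 5 or day 7, where 6.87%, 2.13% and 2.53% of genes were called.

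The other genes of heme synthesis did not rise. Of 8 measured, 0 rose in limma on any day and 1 fell, on day 7, where 6.87%, 2.13% and 2.53% of all genes were called on the 3 days. The median change of the list was -0.17, -0.21 and -0.19. The ubiquitous first enzyme ALAS1 differed by -0.29, -0.16 and -0.02 on day 3, day 5 and day 7 (SE 0.20 for each, limma adjusted p = 0.442, 0.789 and 0.970). ALAD, the next enzyme, differed by -0.03, -0.27 and -0.26, UROS by -0.16, -0.07 and -0.12, UROD by 0.21, -0.07 and -0.38, and PPOX by -0.30, -0.26 and -0.30, with 0.249 as the lowest limma adjusted p of these 4. FECH, which inserts iron into protoporphyrin, fell on day 7 (limma adjusted p = 0.0317, mean log2 level -3.40 in controls and -4.33 on day 7). It was well above background on 2 of the 3 control arrays and on no day 7 array. Both means thus hold values near or below detection, and no fold is given. The FECH call was kept under 13 of 22 alternatives, and was lost on leaving out replicate 1 (adjusted p = 0.10) or 2 of the controls, replicate 2 of day 5, or replicate 2 or 3 of day 7. With normexp background correction the FECH difference was -0.013 (limma adjusted p = 0.991). Within groups, 6 of the 7 heme synthesis genes other than ALAS2 had an r above 0 with HBA, led by UROD (0.761) and UROS (0.715), with a median of 0.537. Over all genes 53.9% were above 0, with a median of 0.0538.

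Several genes that clear hemoglobin, heme and iron changed with the days. Of 13 measured, 5 rose and 1 fell on day 3, 4 rose on day 5, and 4 rose and 1 fell on day 7. Of all genes, 6.87%, 2.13% and 2.53% were called on these days. The median change of the list was 0.48, 0.44 and 0.39. HMOX1, heme oxygenase 1, which opens the heme ring, read 39.2, 24.9 and 28.0 on the control arrays and 248, 384 and 807 on day 3. It read 153, 138 and 225 on day 5, and 193, 158 and 194 on day 7. Every array after hemorrhage lay above every control, of which replicate 2 was not well above background. It rose by 3.71 on day 3 (SE 0.37, 13.1-fold, limma adjusted p = 0.000211), by 2.56 on day 5 (SE 0.37, limma adjusted p = 0.00484) and by 2.80 on day 7 (SE 0.37, limma adjusted p = 0.00332), and these calls held under all 22 alternatives. With normexp background correction the differences were smaller, at 2.36, 1.39 and 1.58.

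HMOX1 also followed the members inside the groups. Its within-group r was 0.878 with HBA, 0.957 with HBB2 and 0.881 with ALAS2, or 0.64, 0.878 and 0.719 without the day 3 arrays. Its limma slope on the within-group level was 0.65 per log2 of HBA (SE 0.13, adjusted p = 0.625) and 0.61 per log2 of HBB2 (SE 0.08, adjusted p = 0.0757), so it did not pass the test. Over all 12 arrays, where its rise on day 3 had no counterpart in the globins, its r was 0.456 with HBA and 0.428 with HBB2. HMOX1 was highest on day 3 and the globin means on day 7.

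Other genes of that list changed with the days, and none had a within-group r with HBA as high as HMOX1. HP, haptoglobin, which binds free hemoglobin, rose by 5.76, 3.35 and 3.50 on day 3, day 5 and day 7 (SE 0.55 for each, limma adjusted p = 0.000174, 0.0102 and 0.00863), and its within-group r with HBA was 0.133. CP, ceruloplasmin, a ferroxidase, rose by 2.88, 1.94 and 1.91 (SE 0.22 for each, limma adjusted p = 7.75e-05, 0.00167 and 0.00156), with r = 0.348. FTL, ferritin light chain, which stores iron, rose by 1.68, 1.18 and 1.39 (SE 0.23 for each, limma adjusted p = 0.00136, 0.0218 and 0.00936), with r = 0.605. Its day 5 call was lost without day 5 replicate 1 (adjusted p = 0.0803) or without day 5 replicate 3 (adjusted p = 0.074). ACO1, an iron-responsive regulator, rose on day 3 by 1.04 (SE 0.27, limma adjusted p = 0.0395), and TFRC, the transferrin receptor, fell by 1.03 on day 3 and by 1.19 on day 7 (SE 0.27 for each, limma adjusted p = 0.0446 and 0.0444). Those calls of ACO1 and TFRC were kept under 8, 5 and 8 of 22 alternatives. Without day 3 replicate 3, ACO1 had an adjusted p of 0.136 and TFRC on day 3 one of 0.161. With the slide as a block the ACO1 call was lost (limma adjusted p = 0.0581), and with normexp background correction ACO1 was 0.48 above controls on day 3 (limma adjusted p = 0.12) and TFRC -0.36 and -0.40 on day 3 and day 7 (limma adjusted p = 0.331 and 0.417). The ACO1 call outlasted leaving out day 3 replicate 1, day 5 replicate 2 or day 5 replicate 3, and no other array. The TFRC call of day 3 outlasted leaving out day 3 replicate 1 alone, and that of day 7 control replicate 3, day 3 replicate 1 or day 3 replicate 2. HMOX2, the constitutive heme oxygenase, differed by 0.32, 0.08 and 0.04 (SE 0.16 for each, limma adjusted p = 0.262, 0.883 and 0.921), with r = 0.754 within groups. The remaining members, such as TF (0.07, 0.16 and 0.18, limma adjusted p = 0.849, 0.705 and 0.562) and LRP1 (0.34, 0.44 and 0.50, limma adjusted p = 0.450, 0.438 and 0.298), were not called.

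**Figure D4:**
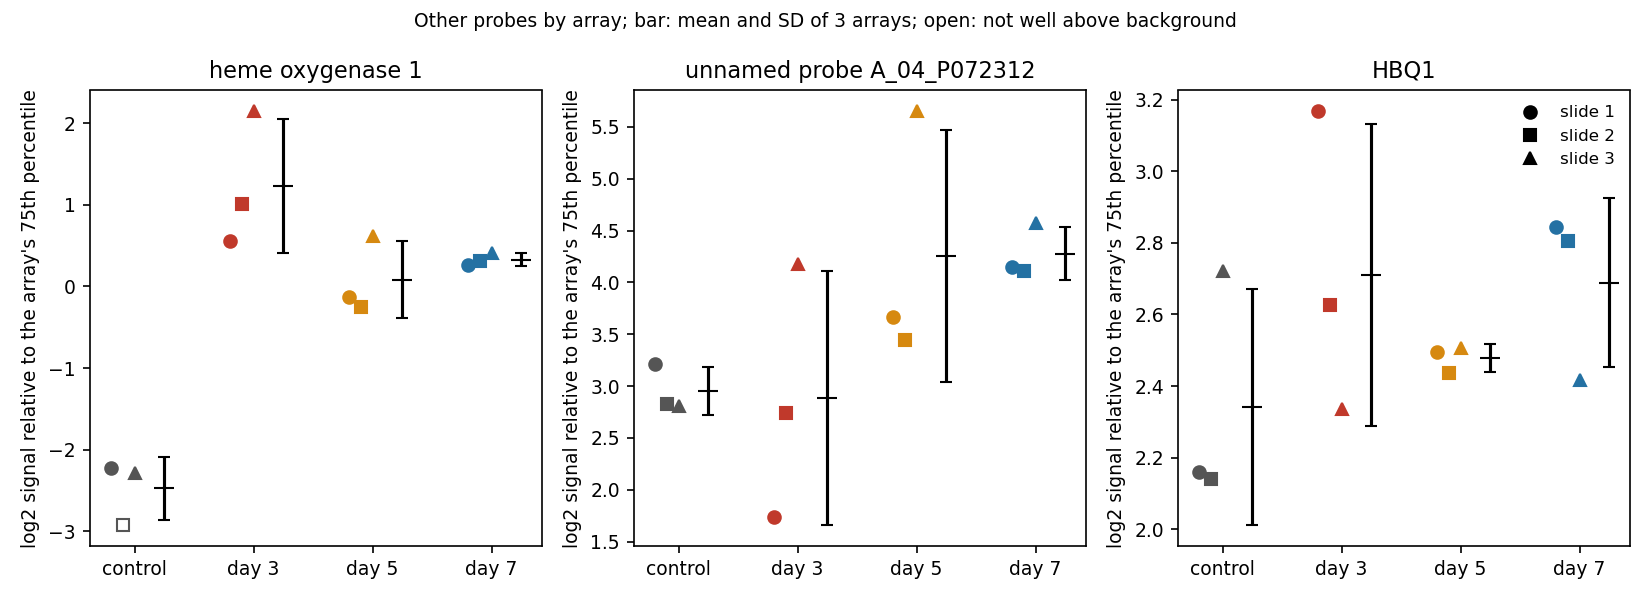
Scaled log2 signal (75th percentile of the array at 0) for heme oxygenase 1, the unnamed probe A_04_P072312 and HBQ1, 1 point per array with the slide as marker and the mean ± SD of 3 arrays. Heme oxygenase 1 is above the controls on all 9 arrays after hemorrhage, A_04_P072312 repeats the pattern of HBB2, and HBQ1 is highest on day 3 replicate 1, where the globins are lowest.

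Markers of other blood cells did not all move with the globins. Of the 7 measured platelet and megakaryocyte genes, 0 were called in limma on any day, and their median change was 0.29, -0.03 and 0.12. The share called over all genes was 6.87%, 2.13% and 2.53% on day 3, day 5 and day 7. GP1BA, GP5 and SELP, defining surface proteins of platelets, were above background on no array. ITGB3, an integrin chain, differed by 0.74 on day 3 (SE 0.32, limma adjusted p = 0.199). Of the 7, 6 had a within-group r above 0 with HBA, median 0.361, where 53.9% of all genes did, median 0.0538. Of the 11 neutrophil genes 2 rose on day 3, NCF4 among them. NCF4, a subunit of the phagocyte oxidase, rose by 1.03, 1.22 and 1.08 (SE 0.21 for each, limma adjusted p = 0.0161, 0.0137 and 0.0259). MMP9, a secreted protease, fell by 1.71 on day 5 and by 2.41 on day 7 (SE 0.33 for each, limma adjusted p = 0.0249 and 0.00441), or by 1.13 and 1.49 with normexp background correction. The list's median within-group r with HBA was 0.022. Leaving out day 3 replicate 3 ended both day 3 calls, with an adjusted p of 0.071 for NCF4, as did leaving out control replicate 2. The NCF4 calls were also lost without day 3 replicate 1 on day 3, without day 5 replicate 2 or 3 on day 5, and without control replicate 2 or day 7 replicate 1 or 2 on day 7. The MMP9 call of day 5 was lost without control replicate 2 or 3 or any day 5 array, with adjusted p up to 0.087.

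Of the 6 macrophage genes, 4 rose on each of the 3 days, where 6.87%, 2.13% and 2.53% of all genes were called. The list's median change was 1.41, 1.82 and 1.77. CD68, a lysosomal protein of phagocytes, rose by 2.17, 1.88 and 2.0 (SE 0.19 for each, limma adjusted p = 0.000126, 0.00106 and 0.000618), and CD14, a receptor for bacterial lipopolysaccharide, by 1.44, 1.81 and 1.55 (SE 0.22 for each, limma adjusted p = 0.00291, 0.00196 and 0.00473), under all 22 alternatives. With normexp background correction CD68 was 1.60, 1.23 and 1.42 above controls. MRC1, the mannose receptor, rose by 1.37, 1.84 and 2.04 (SE 0.30 for each, limma adjusted p = 0.0209, 0.00918 and 0.00578), and MSR1, a scavenger receptor, by 2.47, 2.34 and 2.22 (SE 0.46 for each, limma adjusted p = 0.00966, 0.0253 and 0.0312). MSR1 was well above background on 1 of 3 control arrays, and with normexp background correction its differences were 0.71, 0.80 and 0.63 (limma adjusted p = 0.0384, 0.0507 and 0.122). Its calls were lost on day 5 without replicate 2 or 3 of the controls or replicate 1 or 3 of day 5, and on day 7 without replicate 2 of the controls or any day 7 array, with adjusted p up to 0.12. That of MRC1 on day 3 was lost without replicate 1 or 2 of the controls or replicate 2 of day 3, with adjusted p up to 0.0762. The mean centred level of the list was -1.52 to -0.85 on the control arrays and 0.13 to 0.71 on the others, without overlap, while those of the globins overlapped on day 3. Of the 13 measured smooth muscle genes, 12 were called on no day, with ACTA2 at -0.69, -0.53 and -0.62 (SE 0.26 for each, limma adjusted p = 0.142, 0.376 and 0.236). The median change of the smooth muscle list was -0.431, -0.455 and -0.591. MYL9 fell by 0.64 on day 3 (SE 0.17, limma adjusted p = 0.0451), a call kept under 8 of 22 alternatives. It was lost without day 3 replicate 3 (adjusted p = 0.167) and outlasted only the leaving out of control replicate 3, day 3 replicate 1, day 5 replicate 3 or day 7 replicate 3. The 7 measured lymphocyte genes had a median change of 1.35, 0.62 and 0.34. Of these, 1 rose on day 3, CD79B, a chain of the B cell receptor. CD79B was above background on no control array and was at least 1.75-fold higher on the main scale (limma adjusted p = 0.00708). With normexp background correction its difference was 0.35 (limma adjusted p = 0.43). None of 6 endothelial genes was called in limma, and their median change was -0.57, -0.44 and -0.64. The lowest p were those of ESAM (-0.55, -0.66 and -0.92) and CLDN5 (-0.64, -0.39 and -0.81), while VWF was at 0.41, -0.19 and 0.12 and PECAM1 at 0.33, 0.07 and -0.19. None of 3 neural and glial genes was called in limma, with SYT1 at -1.23, -0.94 and -1.45 and ENO2 at 0.38, 0.18 and 0.09, and GFAP and AQP4, defining genes of astrocytes, were above background on no array. The part of these other cells in the globin values was not tested.

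Adding the HBA level of each array to the fit as a covariate changed how many probes were called on day 5 and day 7 more than on day 3. With HBA, 1641 probes (6.21%) were called on day 3, 220 (0.832%) on day 5 and 100 (0.378%) on day 7, against 1754, 533 and 597 without it. Of the probes called without the covariate, 87.2%, 38.3% and 15.4% were still called, and of those called with it, 93.2%, 92.7% and 92% had been called without. The direction was kept by 1754 of 1754, 533 of 533 and 597 of 597. The sizes of the changes hardly moved: the median ratio of the change with the covariate to that without was 0.985, 0.96 and 0.959. The SE moved more on day 5 and day 7, with a median ratio of 0.996, 1.17 and 1.33. The HBA level was itself 0.97 higher on day 5 and 1.40 higher on day 7 than in controls, so covariate and group overlap in this fit. How many of the lost calls go with red-cell RNA was not tested.

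The count depended on which red-cell gene and which arrays were used. With HBB2 as covariate 2086, 254 and 202 probes were called, and with ALAS2 2067, 465 and 657. Leaving out 1 array with HBA as covariate gave 478 to 1974 calls on day 3. For day 5 the range was 22 to 341, and for day 7 it was 1 to 407. Day 3 replicate 3 gave the lowest counts on day 5 and day 7 and control replicate 3 the highest, and on day 3 the lowest came without day 3 replicate 1.

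**Figure D5:**
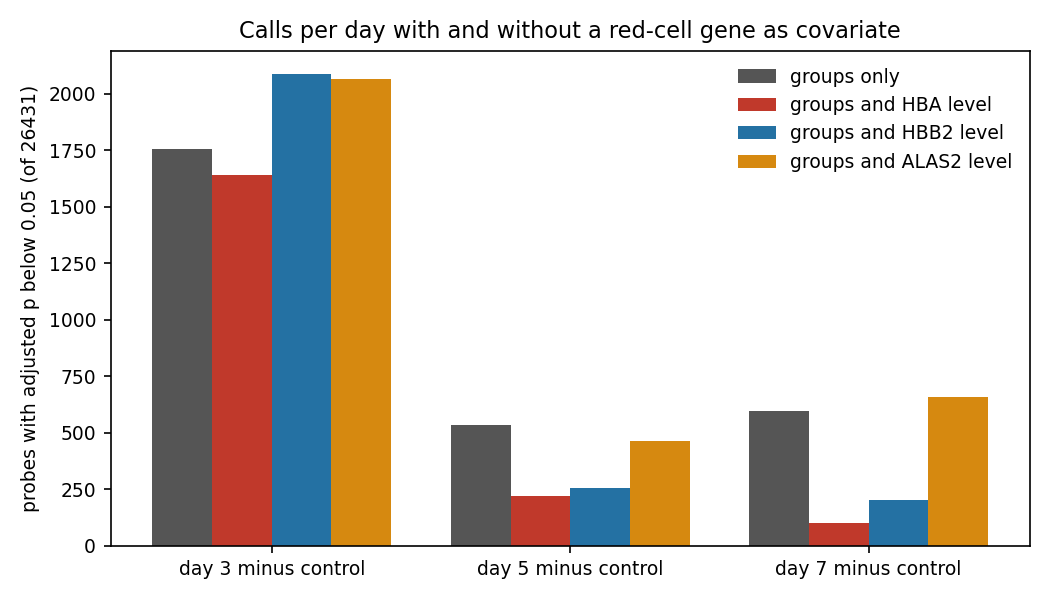
Number of probes with a limma adjusted p below 0.05 for each day against the controls, of 26431 tested, in the fit with groups only and in fits that add the log2 level of HBA, HBB2 or ALAS2. On day 7 the count is 597 with groups only, 100 with HBA, 202 with HBB2 and 657 with ALAS2, while on day 3 it is between 1641 and 2086 in all 4 fits.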

How the data were processed

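Deposited scanner files came from Agilent Feature Extraction, version 9.5.1.1, per the submitters' processing notes. The processed signal is an intensity after background subtraction within the array, per the file headers, while the mean and background columns hold unprocessed intensity, per the file headers. Flags for spots (well above background, outlier, saturated) are of the kind other, 0 or 1, per the file headers. TRIzol extraction and 1-colour labelling from low RNA input are per the labels' protocols. The authors' deposited value table (an intensity, median 27 in every column, r of at least 0.994 with the processed signal) served as an alternative.

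Control spots were left out, outlier-flagged spots set to missing, and log2 signals set against each array's 75th percentile. Probes were named through accessions, symbols and descriptions with the RefSeq table of assembly mOryCun1.1, which gave no coordinates here. A single gene was found for 22177 probes, several for 200 and none for 21246. Heme oxygenase 1 was named from the array's description. Where a gene had several tested probes, the one of highest mean level stood for it. Tests used limma 3.58.1 (R 4.3.3, data.table, version 1.17.8), two-sided, with groups only; permutations used Python 3.11.15 with numpy 2.4.6 and scipy 1.17.1, and 100000 resamples for correlations. Figures used matplotlib 3.10.9. A fold against a group below background is a bound against each array's lowest signal well above background. Named genes are the 5 with the highest r to each member over all arrays and within groups, all measured erythroid, globin and heme synthesis genes, and of other lists up to 4 called genes a day by smallest p or, with none called, 2 as values. The members, lists and rules were chosen with earlier results of these data known. A few genes of these lists are counted but not reported here by name.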

Additional observations from a re-analysis of the deposited data

How the results depend on the processing

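No globin or ALAS2 change against the controls passed the threshold under the alternatives run, with 1 exception: HBB2 on day 7 in a fit of the 2 groups alone (1.48, limma adjusted p = 0.0349). HBA on day 5 and day 7 and HBB2 on day 5 and day 7 kept their direction under all. Values near 0 changed sign. On day 3 HBA was -0.030 with quantile normalization, -0.032 with the authors' value table and -0.30 with array weights, and HBB2 was -0.047, -0.046 and -0.39 there, -0.039 with the mean of its probes and -0.15 with A_04_P005566. ALAS2 on day 5 was -0.079 with array weights. On day 5 and day 7 ALAS2 was -0.21 and -0.22 with the mean of its probes, -0.80 and -0.65 with A_04_P012451, -0.26 and -0.32 with A_04_P012452, and -0.23 and -0.25 with A_04_P012455. Without the filter, it was -0.17 and -0.65 with A_04_P012454, and -0.42 on day 7 with A_04_P012453. The cause was not tested, except that these are other probes. Leaving out 1 array gave -0.45 to 0.70 for HBA on day 3, -0.65 to 0.63 for HBB2 and -0.95 to 0.090 for ALAS2.

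The correlations of ALAS2 with HBA and HBB2 were 0.342 and 0.522 with the mean of all tested probes, no longer past the threshold. Under the other alternatives run, those of ALAS2 and that of HBA with HBB2 were past it. Probes going with a member numbered 0 for HBA with the replicate block, and 0 for HBB2 with the replicate block or quantile normalization; leaving out 1 array gave 0 to 2 and 0 to 6. With ALAS2 as covariate 465 probes were called on day 5 and 657 on day 7, and with HBB2 202 on day 7; leaving out 1 array with HBA gave 478 to 1974, 22 to 341 and 1 to 407.

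Called probes against the controls numbered 1754, 533 and 597 on the 3 days. Leaving out 1 array gave 789 (without day 3 replicate 3) to 1943, 280 (without day 5 replicate 1) to 685, and 229 (without day 7 replicate 1) to 1692 (without control replicate 3). Normexp gave 1007, 221 and 253, no filter 974, 345 and 305, and the 2 groups alone 897, 210 and 292. Array weights gave 1144 on day 5 and 1586 on day 7. Between day 7 and day 3 the range was 2 to 227 against 38, and between day 5 and day 3 0 to 255 against 3.

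Same-numbered arrays correlated in their deviations at -0.153 to 0.387 (median 0.109), with 10 of 18 pairs above 0.1. Arrays of different number did so at -0.396 to 0.26 (median -0.041), with 2 of 36 pairs above 0.1. Same-numbered arrays were thus more alike, but the main fit did not take the numbers as pairs. With the replicate block, HBA on day 7 had a limma adjusted p of 0.15 and HBB2 0.103, and no call of a member changed. Probes called with the block numbered 2281, 662 and 954 on day 3, day 5 and day 7, against 1754, 533 and 597 in the main fit. ALAS2 lies near background, which limits its precision, and the number of arrays limits that of all values.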
